A study of Mus musculus with 15 samples.

Results

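Serum response factor (SRF) and 35 genes of the actin cytoskeleton that are linked to it form a group of 36 genes, picked by name from the 52636 rows of a raw count table of mouse epiblast-like cells (EpiLCs). All 36 names matched 1 Ensembl gene each, and 35 of them passed a filter on low counts that left 13451 genes. The gene that did not pass was Tagln, a smooth muscle actin-binding protein, with 0 to 7 counts in a library. RNA was sequenced in 15 libraries of the line CRAFR26, in which a c-RAF kinase construct that drives ERK signalling is switched on with 4-hydroxytamoxifen (4OHT). The cells came from embryonic stem cells that had passed through an RSC state and had spent 48 h in N2B27 medium with bFGF (12 ng/ml), Activin A (20 ng/ml) and XAV939 (1 µM). All groups also received the FGF receptor inhibitor PD17 (250 nM) for 2 h. The 0h group (n = 3) had no 4OHT. The 2h and 4h groups (n = 4 each) had 250 nM 4OHT for 2 h and 4 h. The rev group (n = 4) was given a MEK inhibitor for 2 h after 4 h of 4OHT. The line was represented by 2 clones, 4 and 8. The 0h group held 1 library of clone 4 and 2 of clone 8, and each other group held 2 of each. The 2 libraries of a clone in a group share that clone, so their spread may be technical. Libraries from cells without the construct, or kept for 6 h in 4OHT without the MEK inhibitor, were not analysed here, so the effect of the MEK inhibitor and that of 2 more hours cannot be told apart.

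SRF is a transcription factor that binds the CArG box and works with either of a pair of cofactor families. The TCF proteins (Elk1, Elk3, Elk4) are phosphorylated by ERK and are known for driving immediate early genes. The MRTF proteins are held back by unpolymerised G-actin and are known for driving cytoskeletal genes, among them actins, vinculin and SRF itself. Actin filaments are built from actin monomers, lined by tropomyosins, bundled by α-actinins, contracted by non-muscle myosin II and anchored to integrins at focal adhesions.

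Total counts were 8667880 to 13004556 in the 0h, 2h and rev libraries and 1552022 to 6658950 at 4h. Mitochondrial genes took 7.21% to 12.4% of the counts at 4h and 2.67% to 6.98% elsewhere. A count of 3, used as the floor of detection, stood for 0.161 to 0.423 CPM (the count scaled by library total and TMM factor, the unit used throughout) outside 4h and for 0.683 to 1.83 CPM at 4h. This floor covers counting error only, since the reads carried no molecular identifiers. The 7 EpiLC markers (Fgf5, Otx2, Pou5f1 and Dnmt3b among them) had counts in every group, with a sum of 818 to 864 CPM at 4h and 1260 to 1540 CPM at 0h. That sum is mostly Dnmt3b, with 398 to 1060 CPM over all libraries. Fgf5, Otx2 and Pou5f1 had at most 28.9, 35.8 and 191 CPM, so the sum does not stand for each marker. The sum of 7 naive pluripotency markers was 77.0 to 275 CPM at 4h and 33.1 to 41.8 CPM at 0h. The 8 fibroblast markers summed to 0.754 to 6.11 CPM at 4h, with 3 of them at 0, and to 5.21 to 11.4 CPM at 0h, with 1 at 0. The 6 smooth muscle markers, which share SRF as a regulator, summed to 17.1 to 72.1 CPM at 4h and 18.9 to 21.4 CPM at 0h. Over all libraries Smtn had 9.16 to 55 CPM, Des 1.37 to 17.3 and Cnn1 0.455 to 3.67. Acta2, Myocd and Myh11 stayed at or below 0.796 CPM. The part of these markers, of depth and of the mitochondrial share in the results below was not tested. Fewer cells of a type and less RNA per cell cannot be told apart in such bulk libraries.

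Promoter windows from RefSeq (GRCm38.p6, 250 bases before to 50 after a start) were found for 33 of the 36 genes. Tagln, Actb and Pxn had no entry. A CArG box, matched on both strands as CC, 6 letters of A or T and GG, was present in the windows of 7 of these 33 genes (21.2%), against 1.81% of all 27025 genes with a window and 1.59% of the tested genes with one. With 1 mismatch allowed, 45.5% of the 33 genes and 23.8% of all genes had a match. The genes with a full match were Srf, Actg1, Vcl, Myl9, Cnn2, Lima1 and Fhl2. A match is a description of the letters, not of binding. The 36 genes were picked as linked to SRF, which binds this box, so their higher share is no independent result. The 6 stretches below are shown because their genes carry the time course and clone results that follow, with the box in capitals and positions counted from the RefSeq start.
Srf, chr17:46556190-46556269, minus strand, with boxes at -82 to -73 and -62 to -53: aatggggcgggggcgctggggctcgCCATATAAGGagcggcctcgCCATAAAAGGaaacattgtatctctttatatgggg
Actg1, chr11:120348551-120348610, minus strand, with the box at -90 to -81: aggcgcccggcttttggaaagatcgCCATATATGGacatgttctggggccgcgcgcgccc
Vcl, chr14:20929148-20929205, plus strand, with the box at -227 to -218: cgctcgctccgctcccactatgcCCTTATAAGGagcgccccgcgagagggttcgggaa
Myl9, chr2:156775278-156775337, plus strand, with the box at -161 to -152: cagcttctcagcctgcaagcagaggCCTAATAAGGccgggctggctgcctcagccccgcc
Cnn2, chr10:79988519-79988578, plus strand, with the box at -56 to -47: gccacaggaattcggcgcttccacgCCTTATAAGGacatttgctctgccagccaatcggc
Lima1, chr15:99820162-99820221, minus strand, with the box at -47 to -38: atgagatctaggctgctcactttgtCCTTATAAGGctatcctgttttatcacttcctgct
Vcl, Cnn2 and Lima1 held the same 10 letters. The Lima1 window belongs to a RefSeq start inside the Lima1 gene (chr15:99778470-99875456), not at its 5′ end, so the box lies within the gene. These 6 genes moved in different directions, as given below: Srf and Lima1 were higher at 4h, Vcl and Myl9 were lower than at 0h, and Actg1 and Cnn2 differed between the clones.

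**Figure D1:**
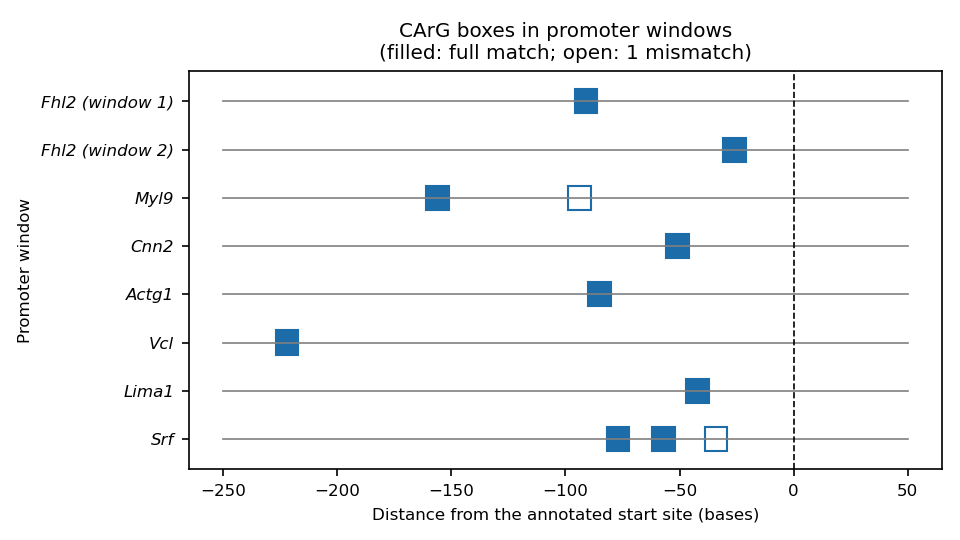
CArG boxes in the promoter windows that held a full match, plotted by distance in bases from the annotated start (dashed line); filled bars are full matches and open bars have 1 mismatch. All full matches lie before the start, and Srf is the window with 2 of them.

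At 2h, over both clones, 0 of the 35 genes were called at an adjusted p under 0.05 (edgeR quasi-likelihood test, Benjamini-Hochberg over 13451 genes), where 6.45% of all tested genes were called, 3.98% higher and 2.46% lower. Of the 35, 6 had an unadjusted p under 0.05, and the smallest adjusted p was 0.0739, for Myl9. DESeq2 called 0 as well. Within clone 4, Tagln2 (0.83, adjusted p = 0.0128) and Lmna (0.99, adjusted p = 0.0483) were higher and 0 genes lower, against 3.06% and 1.27% of all tested genes. Within clone 8, 0 were called, with 7 at an unadjusted p under 0.05, against 1.73% of all tested genes higher and 0.684% lower. At 4h against 0h over both clones, 10 genes were higher and 8 lower (28.6% and 22.9% of the 35), where 20.5% of all tested genes were called higher and 18.9% lower. The clones differed in this split, with 15 higher and 1 lower in clone 4 (13.7% and 13.4% of all tested genes) and 7 higher and 11 lower in clone 8 (14.1% and 12.4%). From 2h to 4h over both clones, 11 were higher and 3 lower (31.4% and 8.57%), against 19.7% and 19.2% of all tested genes. In rev against 4h, 2 were higher and 13 lower (5.71% and 37.1%), against 15.1% and 15.6%. In rev against 0h, 0 were higher and 2 lower, against 6.49% and 4.66%. Within clone 4, 2 were higher and 0 lower in rev than at 0h (4.81% and 2.51% of all tested genes), and within clone 8, 2 were higher and 2 lower (2.95% and 1.86%). Each change from 0h in clone 4 rests on 1 library at 0h, which is assumed to vary like the other groups. The comparisons with 4h share the 4h libraries, so a gene that is high at 4h is called in all of them more easily.

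The median log2 change of the 35 genes was -0.03 at 2h against 0h, 0.13 from 2h to 4h and -0.13 in rev against 4h, where the medians of all tested genes were 0.01, -0.01 and 0.02. The directions depend on how libraries are scaled. With total count scaling in place of TMM, the median of all tested genes itself moved to -0.73 for 4h against 0h, -0.57 for 4h against 2h and 0.45 for rev against 4h. The counts of higher and lower genes then became 1 and 13, 2 and 7, and 2 and 3. The gene group's median lay 0.18 above that of all tested genes from 2h to 4h with this scaling, and 0.14 above it with TMM. The counts of all 36 genes, Actb included, were set against the counts left without the 20 most abundant entries and mitochondrial genes. They came to 1.30% to 1.57% at 4h and 1.08% to 1.24% in every other library, so this sum did not overlap. Actb alone supplied 3438 of the 8204 counts in 4h clone4_1, 8128 of 18824 in 4h clone8_1 and 21135 of 57453 in 0h clone8_1. The sum therefore does not stand for the other genes of the group. All changes below are on the TMM scale.

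**Figure D2:**
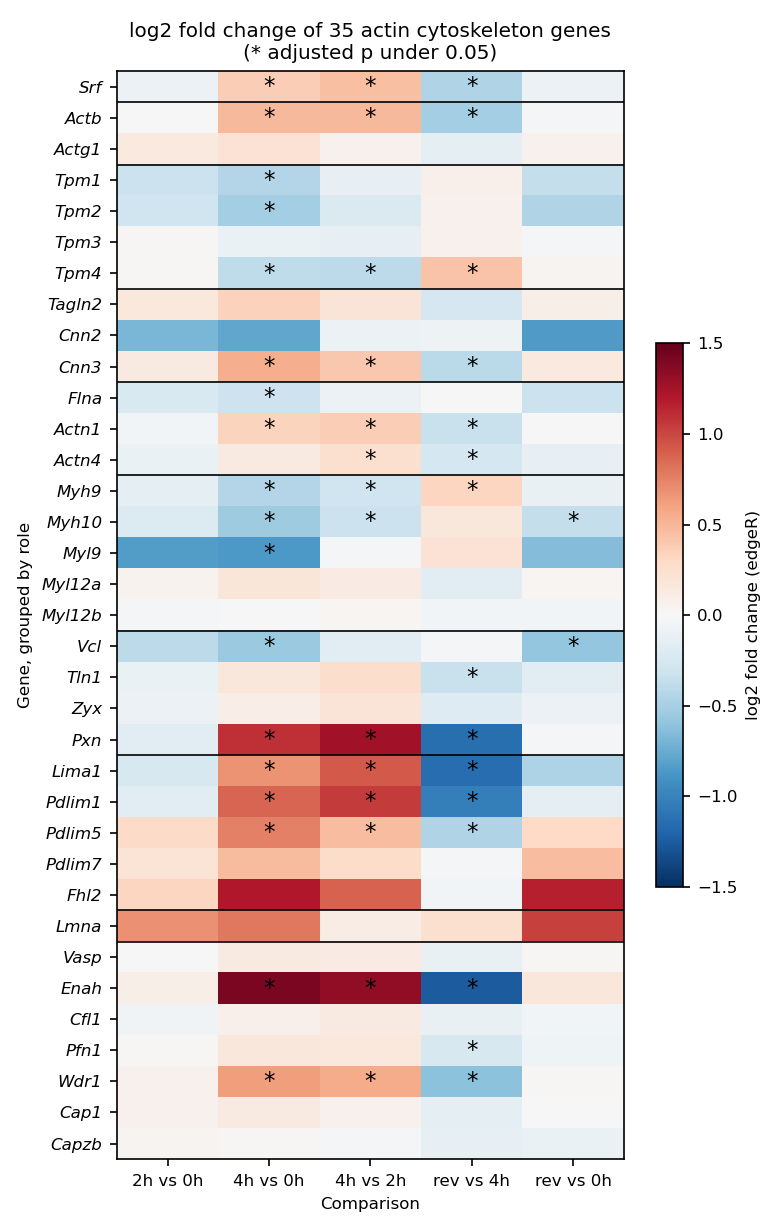
log2 fold changes of the 35 tested genes in 5 comparisons, with genes grouped by role and an asterisk at each adjusted p under 0.05. The 2h vs 0h column holds no asterisk, and Enah, Pxn, Lima1 and Pdlim1 are red from 2h to 4h and blue in rev vs 4h; with total count scaling Actb and Srf turn negative in both comparisons of 4h with 0h and 2h, and Lima1 in that with 0h.

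Srf itself (ENSMUSG00000015605, mm10 chr17:46548329-46556175, minus strand) was higher at 4h over both clones, with overlap between groups. Clone 4 had 40.1 CPM at 0h, 52.2 and 39.4 at 2h, 64.8 and 68.4 at 4h, with 43.9 and 37.7 in rev. Clone 8 had 34.6 and 34.0 CPM at 0h, 24.6 and 33.2 at 2h, 40.1 and 33.6 at 4h, with 31.6 and 32.9 in rev. The 4h libraries of clone 4 were the 2 highest of all 15, and those of clone 8 overlapped with libraries of every other group. Over both clones the log2 change was 0.45 from 2h to 4h (SE 0.13, adjusted p = 0.00861) and -0.46 from 4h to rev (SE 0.13, adjusted p = 0.011). From 2h to 4h it was 0.54 in clone 4 (adjusted p = 0.018) and 0.35 in clone 8 (adjusted p = 0.117), and the clone difference of -0.19 was not called (adjusted p = 0.762). Both changes over the clones were lost without the clone term (adjusted p = 0.14 and 0.142), and that to rev was lost without rev clone4_2 (-0.35, adjusted p = 0.0689). The rise over 0h (0.37, adjusted p = 0.0462) was lost in each fit that left out one of the 3 0h libraries or 4h clone4_1, clone4_2 or clone8_1, with 0.22 to 0.42 and adjusted p between 0.0581 and 0.332. It was also lost with DESeq2 (adjusted p = 0.0649), with only the groups compared (0.0829) and without the clone term (0.138). With total count scaling Srf had -0.34 against 0h and -0.08 against 2h, where all tested genes had medians of -0.73 and -0.57.

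Actb, cytoplasmic β-actin (ENSMUSG00000029580, mm10 chr5:142903115-142906754, minus strand), rose at 4h in both clones and returned in rev, while Actg1, cytoplasmic γ-actin, did not pass the test over time. Actb had 1478, 1413 and 1442 CPM at 0h and 1493, 1406, 1422 and 1478 at 2h. At 4h clone 4 had 2100 and 2189 CPM and clone 8 had 1850 and 1955. The rev libraries had 1373, 1356, 1533 and 1412. No 4h library overlapped with another group. The log2 change was 0.48 from 2h to 4h (SE 0.063, adjusted p = 3.85e-06) and -0.51 from 4h to rev (SE 0.063, adjusted p = 2.63e-06). With total count scaling the change from 2h to 4h was -0.04 and that from 0h -0.22, which lay 0.53 and 0.50 above the median of all tested genes. Per kilobase of exon, Actb was the highest of the 36 genes at 0h, with a mean of 539 CPM per kb, followed by Cfl1 with 98.2, Pfn1 with 79.0 and Actg1 with 38.1.

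Actg1 (ENSMUSG00000062825, mm10 chr11:120345690-120348542, minus strand) had 137 CPM at 0h, 137 and 143 at 2h, 171 and 185 at 4h, with 113 and 127 in rev in clone 4. In clone 8 it had 82.7 and 83.5 CPM at 0h, 94.9 and 101 at 2h, 80.4 and 83.7 at 4h, with 99.9 and 102 in rev. The 4h libraries were the highest of clone 4 and among the lowest of clone 8. The change over both clones was 0.06 from 2h to 4h (adjusted p = 0.709). Of the 50-base stretches of Actg1 transcripts, 37.4% also occur in transcripts of other annotated genes, so its counts, and to a lesser degree those of Actb (9.12%), depend on how shared reads were assigned.

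Among genes that act on filament ends and turnover, Enah and Wdr1 rose at 4h, and the other 5 did not pass the test in that step. Enah, an Ena/VASP protein that promotes filament elongation (ENSMUSG00000022995, mm10 chr1:181896384-182019990, minus strand), had 76.3 to 89.4 CPM at 0h and 83.1 to 98.8 at 2h. It had 190 and 200 CPM in clone 4 and 248 and 261 in clone 8 at 4h, and 87.6 to 102 CPM in rev. All 4h libraries lay above all others. The log2 change of Enah was 1.33 from 2h to 4h (2.52-fold, SE 0.10, adjusted p = 3.27e-09), 1.41 against 0h (SE 0.11, adjusted p = 6.86e-09) and -1.24 from 4h to rev (SE 0.10, adjusted p = 1.6e-08). These 3 calls held under each alternative run for single genes, total count scaling included, where the values were 0.81, 0.68 and -0.84.

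Wdr1, a cofactor of cofilin in filament disassembly, had 47.6 and 47.8 CPM at 2h, 77.6 and 85.2 at 4h, with 46.0 and 46.1 in rev in clone 4. In clone 8 it had 34.5 and 42.2 CPM at 2h, 49.4 and 46.0 at 4h, with 37.1 and 36.5 in rev. At 0h it had 37.9 to 39.9 CPM. The 4h libraries were above the 2h and rev libraries of the same clone, and clone 8 at 4h overlapped with clone 4 at 2h. Its log2 change was 0.56 from 2h to 4h (SE 0.11, adjusted p = 0.000511) and -0.61 to rev (SE 0.11, adjusted p = 0.000297). Both Wdr1 calls were lost with total count scaling (0.01 and -0.22, adjusted p = 0.974 and 0.551). Pfn1, profilin, which feeds actin monomers to growing ends, fell by 0.24 from 4h to rev (adjusted p = 0.0461). Vasp, a relative of Enah, had 0.13 from 2h to 4h (adjusted p = 0.538), and Cfl1 (cofilin), Cap1 and Capzb (a capping protein subunit) had 0.13, 0.07 and -0.01, none with an adjusted p under 0.05 in any of the 5 group comparisons.

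Focal adhesion scaffolds moved in different directions. Pxn, paxillin, an adaptor of integrin adhesions (ENSMUSG00000029528, mm10 chr5:115506676-115555987, plus strand), had 13.4, 11.6 and 9.81 CPM at 0h and 13.1, 12.7, 8.81 and 10.2 at 2h. It had 34.8 in both clone 4 libraries and 21.2 and 18.5 in clone 8 at 4h, and 14.4, 14.3, 10.01 and 10.4 in rev. No 4h library overlapped with another group. The log2 change of Pxn was 1.25 from 2h to 4h (2.38-fold, SE 0.13, adjusted p = 1.53e-07) and -1.13 to rev (SE 0.13, adjusted p = 1.03e-06).

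Vcl, vinculin, which couples talin to actin (ENSMUSG00000021823, mm10 chr14:20929398-21033676, plus strand), was lower at 4h and in rev than at 0h over both clones. It had 59.5, 65.2 and 68.0 CPM at 0h and 55.7, 46.3, 44.2 and 54.6 at 2h. At 4h it had 58.0 and 51.1 in clone 4 and 36.4 and 36.9 in clone 8, and in rev 55.5, 39.5, 41.7 and 39.6. All libraries of 2h, 4h and rev lay below those of 0h. The log2 change from 0h was -0.39 at 2h (adjusted p = 0.0939), -0.55 at 4h (SE 0.14, adjusted p = 0.00378) and -0.59 in rev (SE 0.14, adjusted p = 0.00824). Within clone 8 the change of Vcl from 0h to 4h was -0.86 (adjusted p = 0.000501) and within clone 4 -0.13 (adjusted p = 0.652), with no called clone difference (adjusted p = 0.118). Reads of Vcl may be shared with Ap3m1, since 25.1% of its 50-base stretches also occur there. Tln1, talin, fell by 0.34 from 4h to rev (adjusted p = 0.02). Zyx, zyxin, went in opposite directions in the 2 clones and had 0.19 from 2h to 4h over both (adjusted p = 0.735).

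LIM and PDZ-LIM proteins, which bind actin or α-actinin, held the next set of rises. Pdlim1 (ENSMUSG00000055044, mm10 chr19:40221173-40271842, minus strand) had 9.18, 11.6 and 12.7 CPM at 0h and 7.49, 8.67, 12.1 and 9.80 at 2h. It had 17.7, 18.0, 22.5 and 20.0 at 4h, and 8.76, 8.16, 11.6 and 10.3 in rev, so that all 4h libraries were above all others. Its log2 change was 1.05 from 2h to 4h (2.07-fold, SE 0.13, adjusted p = 1.99e-06) and -1.02 to rev (SE 0.13, adjusted p = 4.44e-06). With total count scaling these kept their direction but lost the call (0.50 and -0.60, adjusted p = 0.162 and 0.116).

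Lima1, which bundles and stabilises filaments (ENSMUSG00000023022, mm10 chr15:99778470-99875456, minus strand), rose more in clone 8 than in clone 4. At 4h it had 50.5 and 55.8 CPM in clone 8 and 23.8 and 17.0 in clone 4. It had 21.7 to 24.2 CPM at 0h, 16.7 to 20.6 at 2h and 13.7 to 17.4 in rev. Clone 4 at 4h overlapped with 0h and 2h. From 2h to 4h it rose by 1.46 in clone 8 (adjusted p = 2.52e-06) and had 0.20 in clone 4 (adjusted p = 0.399), with a clone difference of 1.26 (adjusted p = 0.00364). Over both clones the change was 0.92 from 2h to 4h (SE 0.21, adjusted p = 0.00246) and -1.15 to rev (SE 0.21, adjusted p = 0.00061). Against 0h it was 0.68 (adjusted p = 0.0243) and -0.04 with total count scaling. That call was lost without 0h clone8_1 (0.58), 0h clone8_2 (0.59), 4h clone8_1 (0.53) or 4h clone8_2 (0.46), with adjusted p between 0.078 and 0.101, with only the groups compared (0.0724) and without the clone term (0.08).

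Pdlim5 differed between clones and was higher at 4h than at 0h in both. Clone 4 had 6.05 CPM at 0h, 7.49 and 8.58 at 2h, 12.8 and 11.6 at 4h, with 7.78 and 7.74 in rev. Clone 8 had 13.4 and 11.02 CPM at 0h, 17.0 and 11.7 at 2h, 18.2 and 18.5 at 4h, with 14.2 and 16.0 in rev. The 4h libraries were the highest of each clone. The log2 change of Pdlim5 was 0.76 against 0h (SE 0.16, adjusted p = 0.000774), 0.47 from 2h to 4h (adjusted p = 0.0151) and -0.45 to rev (adjusted p = 0.0232). The call against 0h was lost without the clone term (0.60, adjusted p = 0.202) and with total count scaling (0.00113, adjusted p = 0.998). Pdlim7 and Fhl2 did not pass the test over both clones. Fhl2, a LIM-only cofactor, had 0 counts in both clone 8 libraries at 4h, where the floor was 0.683 and 1.13 CPM. Since no other Fhl2 value of clone 8 exceeded 0.987 CPM, a fall there was not measurable at this depth.

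Tropomyosins, which coat filaments, were lower at 4h than at 0h over both clones for Tpm1 (-0.44, SE 0.14, adjusted p = 0.0145), Tpm2 (-0.51, SE 0.17, adjusted p = 0.0229) and Tpm4 (-0.38, SE 0.15, adjusted p = 0.0426), while Tpm3 had -0.10 (adjusted p = 0.45). Within clone 8 these were -0.82 for Tpm1, -0.73 for Tpm2 and -0.79 for Tpm4, each called, and within clone 4 they were 0.03, -0.29 and 0.21, none called. The clone difference was called for Tpm1 (-0.85, adjusted p = 0.0183) and Tpm4 (-0.9992, adjusted p = 0.00719) and not for Tpm2 (-0.44, adjusted p = 0.586). The Tpm1 call was lost without 4h clone8_1 (-0.39, adjusted p = 0.051) or 4h clone8_2 (-0.31, adjusted p = 0.0682), and that of Tpm2 without 4h clone8_1 (-0.39, adjusted p = 0.098). Without the clone term they had adjusted p of 0.102 and 0.119. Tpm4 had 39.7, 58.8 and 57.1 CPM at 0h and 46.3, 51.8, 59.7 and 50.7 at 2h. It had 40.9 and 50.4 in clone 4 and 32.6 and 34.3 in clone 8 at 4h, and 52.3, 53.3, 53.7 and 53.5 in rev. The lowest values were those of clone 8 at 4h, and every rev library was above every 4h library. The change of Tpm4 was -0.40 from 2h to 4h (adjusted p = 0.0229) and 0.43 to rev (adjusted p = 0.0188). It was lost from 2h to 4h without 2h clone8_1 (-0.33, adjusted p = 0.0741), 4h clone8_1 (-0.29, adjusted p = 0.107) or 4h clone8_2 (-0.32, adjusted p = 0.0902). To rev it was lost without the last 2 of these, with 0.31 and 0.34 and adjusted p of 0.0972 and 0.0855.

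Of the calponin and transgelin family, Cnn3 rose by 0.41 from 2h to 4h (SE 0.095, adjusted p = 0.00177) and fell by 0.40 to rev (adjusted p = 0.00291). Cnn2 and Tagln2 were not called over both clones. Among crosslinkers, Actn1, an α-actinin, rose by 0.37 (SE 0.089, adjusted p = 0.00209) and fell by 0.33 to rev (adjusted p = 0.00687). Its relative Actn4 rose by 0.24 (adjusted p = 0.0175) and fell by 0.26 (adjusted p = 0.0119). Flna, filamin A, had -0.31 at 4h against 0h over both clones (adjusted p = 0.022), with -0.49 in clone 8 and -0.03 in clone 4 (adjusted p = 0.00736 and 0.895), and -0.09 against 2h (adjusted p = 0.501).

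Non-muscle myosin II was lower at 4h than at 0h, over both clones, in both its measured heavy chains and in 1 of 3 light chains. Myh10 had 148, 144 and 145 CPM at 0h and 147, 116, 112 and 135 at 2h. It had 111, 99.7, 97.0 and 99.5 at 4h and 124, 110, 122 and 103 in rev. The 4h libraries lay below all libraries of 0h and 2h and overlapped with rev. The log2 change of Myh10 was -0.53 from 0h to 4h (SE 0.098, adjusted p = 0.000222) and -0.33 from 2h to 4h (SE 0.091, adjusted p = 0.00678). Both were kept under each alternative run for single genes. Myh9 had -0.44 from 0h (SE 0.12, adjusted p = 0.00644), -0.30 from 2h to 4h (SE 0.11, adjusted p = 0.0371) and 0.32 to rev (SE 0.11, adjusted p = 0.0317). The Myh9 change from 2h to 4h was lost without 2h clone4_1, 2h clone8_2, 4h clone4_2, 4h clone8_1 or 4h clone8_2, with -0.29 to -0.21 and adjusted p between 0.083 and 0.162, and with DESeq2 (0.0545), only the groups compared (0.0785) or no clone term (0.121). Its change to rev was lost without the same 3 libraries of 4h, rev clone4_1 or rev clone8_1, with 0.25 to 0.30 and adjusted p between 0.0863 and 0.145, and with DESeq2 (0.0597) or no clone term (0.118).

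Myl9, a regulatory light chain, had a log2 change of -0.86 from 0h to 4h (SE 0.32, adjusted p = 0.0343), at 4.35 to 7.51 CPM at 0h and 1.82 to 4.44 at 4h. That call was lost without 0h clone8_2 (-0.56, adjusted p = 0.175), 4h clone8_1 (-0.66, adjusted p = 0.135) or 4h clone8_2 (-0.86, adjusted p = 0.0648). It was also lost with DESeq2 (adjusted p = 0.0503), with only the groups compared (0.0684), without the clone term (0.08) and when the 20 most abundant entries and mitochondrial genes were set aside (0.0824). Within clone 8 it was -1.43 (adjusted p = 0.0131) and within clone 4 -0.08 (adjusted p = 0.915), with no called clone difference (adjusted p = 0.269). The other light chains of the group, Myl12a and Myl12b, near-identical neighbours that share reads, had 0.18 and 0.00 (adjusted p = 0.21 and 0.99). In rev against 0h over both clones, Myh10 (-0.36, adjusted p = 0.0203) and Vcl were the 2 genes called. The Myh10 call was lost without any 1 of the 3 0h libraries, rev clone4_2 or rev clone8_2, with -0.38 to -0.31 and adjusted p between 0.0522 and 0.092, without the clone term (0.0529) and with total count scaling (0.121). Within clone 4, Tagln2 (0.85) and Lmna (1.27) were higher in rev than at 0h (both adjusted p = 0.00727). Within clone 8, Lmna (1.01, adjusted p = 0.0131) and Pdlim7 (0.56, adjusted p = 0.0199) were higher, and Cnn2 (-1.12, adjusted p = 0.00395) and Vcl (-0.71, adjusted p = 0.00837) were lower.

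**Figure D3:**
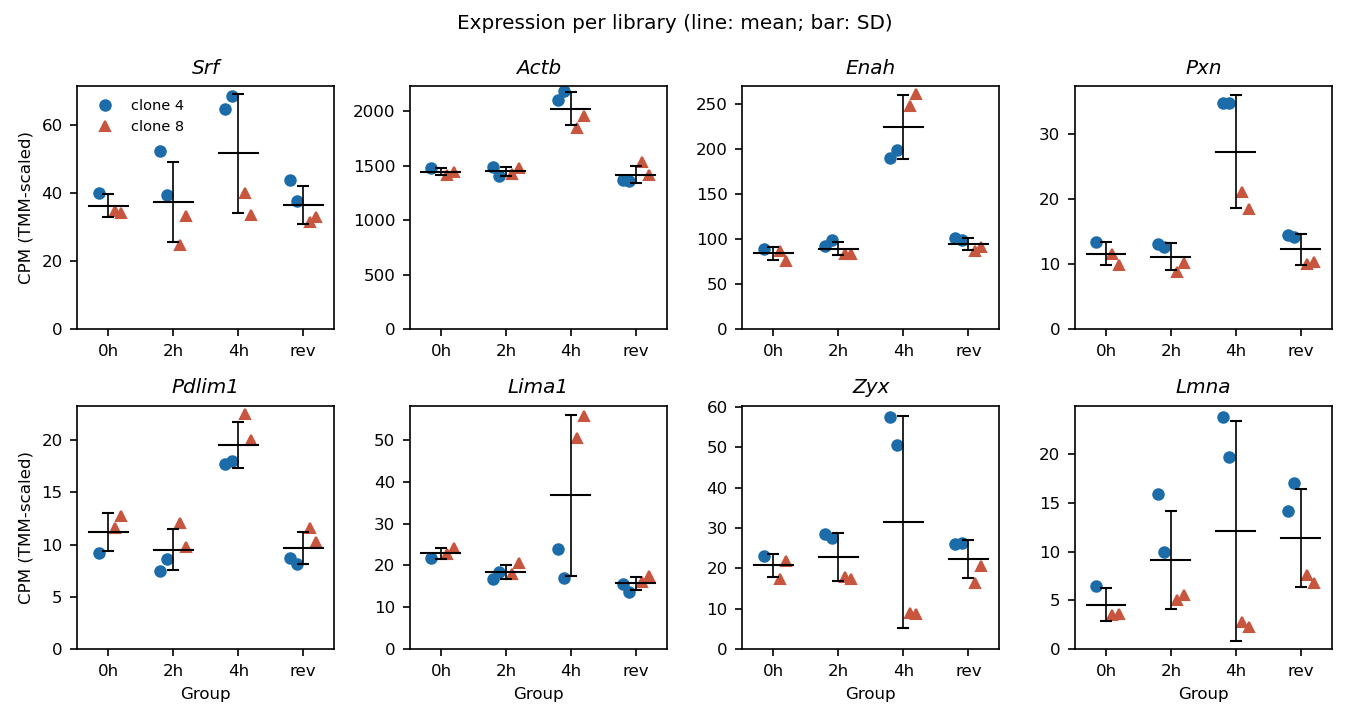
CPM of 8 genes in every library by group, with circles for clone 4, triangles for clone 8, a line at the group mean and a bar of 1 SD. Enah, Pxn, Pdlim1 and Actb have all 4h libraries above the rest on this TMM scale, whereas for Lima1, Zyx and Lmna the clones part at 4h; with total count scaling Actb had -0.04 from 2h to 4h.

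Over all groups together, 4 genes were higher and 13 lower in clone 8 than in clone 4 (11.4% and 37.1% of 35), where 10.4% of all tested genes were higher and 8.11% lower. The 4 higher were Pdlim5 (0.845, SE 0.11, adjusted p = 8.38e-06), Lima1 (0.46, adjusted p = 0.0449), Pdlim1 (0.36, adjusted p = 0.00916) and Myl12b (0.28, adjusted p = 0.0317). The largest 5 of those lower were Lmna (-1.52, SE 0.23, adjusted p = 0.000259), Zyx (-0.9999, SE 0.29, adjusted p = 0.038), Actg1 (-0.64, SE 0.089, adjusted p = 2.86e-05), Srf (-0.54, SE 0.096, adjusted p = 0.000359) and Pxn (-0.53, SE 0.093, adjusted p = 0.00034). With total count scaling the calls of Lima1, Pdlim1 and Myl12b were lost (adjusted p = 0.288, 0.567 and 0.682), as were those of Srf and Pxn (0.0606 and 0.11). Those of Pdlim5, Lmna, Zyx and Actg1 were kept. The clones differed in Lima1 mainly at 4h, with means of 53.2 CPM in clone 8 and 20.4 in clone 4. At 0h these means were 23.4 and 21.7, at 2h 19.3 and 17.5, and in rev 16.75 and 14.6. Each clone stands for 1 line, so all of these clone results are differences between these 2 lines.

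From 2h to 4h, 15 genes rose and 0 fell in clone 4, where 13.5% of all tested genes were called higher and 13.8% lower. In clone 8, 7 rose and 6 fell, against 13.9% and 13.1%. The difference between clones, tested as an interaction, was called for 9 of the 35 genes, against 3.14% of all tested genes. For 7 of them the change was lower in clone 8, namely Zyx, Lmna, Cnn2, Tagln2, Pdlim7, Tpm1 and Actg1, and for Lima1 and Enah it was higher. From 4h to rev, the difference was called for 6 genes, against 2.8% of all tested genes, and those were Zyx, Lmna, Pdlim7, Tagln2, Actg1 and Lima1. For 4h against 0h, a comparison added after the results were seen, the difference was called for 8 genes, against 3.87% of all tested genes: Zyx, Lmna, Cnn2, Tagln2, Pdlim7, Tpm4 and Tpm1 were lower in clone 8 and Lima1 was higher. All 3 interactions use the same 4h libraries. The Enah difference was lost without any 1 of the 8 libraries of 2h and 4h (0.52 to 0.62, adjusted p up to 0.143), and those of Tpm1, Cnn2 and Actg1 were lost in most of these fits. With total count scaling the 3 numbers were 2, 0 and 0, and the median difference of all tested genes from 2h to 4h was then -0.51.

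Zyx, a LIM protein of focal adhesions and stress fibres (ENSMUSG00000029860, mm10 chr6:42349630-42360213, plus strand), is shown with Lmna and Tagln2 in every library. They were picked, after their values were seen, from the genes with a called clone difference from 2h to 4h. Lima1 (adjusted p = 0.00364) ranked ahead of Lmna and Tagln2 in that test. In clone 4, Zyx had 23.0 CPM at 0h, 28.5 and 27.5 at 2h, 57.4 and 50.6 at 4h, with 26.1 and 26.2 in rev. In clone 8, it had 17.5 and 21.8 CPM at 0h, 18.0 and 17.5 at 2h, 8.88 and 8.67 at 4h, with 16.5 and 20.7 in rev. Clone 4 was above clone 8 in every group, and at 4h Zyx was at its highest in clone 4 and at its lowest in clone 8. The change from 2h to 4h was 0.94 in clone 4 (adjusted p = 0.000186) and -1.01 in clone 8 (adjusted p = 0.000146). The difference was -1.96 (SE 0.23, adjusted p = 4.28e-05), and for rev against 4h it was 2.12 (SE 0.23, adjusted p = 1.59e-05).

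Lmna, which encodes the A-type lamins of the nuclear envelope (ENSMUSG00000028063, mm10 chr3:88480147-88509956, minus strand), had lower values. From 2h to 4h it also went up in clone 4 and down in clone 8. Clone 4 had 6.48 CPM at 0h, 15.9 and 9.99 at 2h, 23.8 and 19.8 at 4h, with 14.2 and 17.0 in rev. Clone 8 had 3.48 and 3.63 CPM at 0h, 5.06 and 5.57 at 2h, 2.73 and 2.26 at 4h, with 7.61 and 6.74 in rev. Its 4h values rest on 12 and 6 counts, where the floor was 0.683 and 1.13 CPM. In both clones the rev libraries of Lmna lay above those of 0h. The clones did not overlap in any group. The clone difference of Lmna was -1.81 from 2h to 4h (SE 0.35, adjusted p = 0.00534) and 1.97 from 4h to rev (SE 0.35, adjusted p = 0.00279). Tagln2, a transgelin, had 16.5 CPM at 0h, 28.3 and 30.4 at 2h, 42.2 and 50.1 at 4h, with 28.1 and 31.3 in rev in clone 4. In clone 8 it had 24.5 and 28.0 CPM at 0h, 23.9 and 27.2 at 2h, 21.2 and 17.3 at 4h, with 24.25 and 22.2 in rev. At 0h clone 8 was thus above the single library of clone 4, the reverse of 4h. The Tagln2 difference from 2h to 4h was -1.06 (SE 0.22, adjusted p = 0.00771), with -0.93 and adjusted p = 0.0509 without 4h clone8_2.

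**Figure D4:**
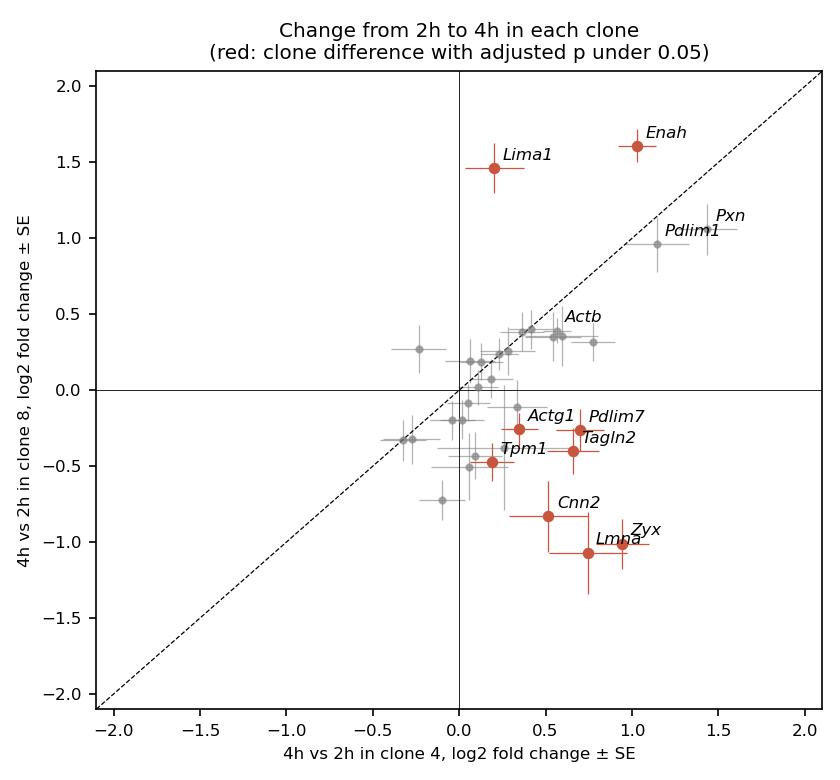
log2 fold change from 2h to 4h in clone 4 (x axis) against clone 8 (y axis), each with its SE, for 34 of the tested genes; Fhl2, at 0 counts in clone 8 at 4h, is left out. The 9 genes in red have a called clone difference; Zyx and Lmna sit at positive values in clone 4 and negative values in clone 8, whereas Pxn, Pdlim1 and Actb lie near the dashed line of equal change. The Enah difference (0.58) turned to -0.01 with total count scaling.

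Of 12 immediate early targets of SRF, 8 were higher at 2h than at 0h and 8 were lower at 4h than at 2h, where 3.98% and 19.2% of all tested genes were called in these directions. These were not all the same genes, since Dusp5 did not fall (means of 25.6 and 39.4 CPM) and Mcl1 was not called at 2h. In rev, 2 were higher and 0 lower than at 4h (15.1% and 15.6% of all tested genes). Against 0h, 4 were higher and 0 lower in rev (6.49% and 4.66%). Egr1, a zinc finger factor, had a mean of 1.97 CPM at 0h, 599 at 2h and 119 at 4h (7.86, adjusted p = 0.000136, and then -2.54, adjusted p = 0.00221). Junb went from 2.495 CPM at 0h to 158 at 2h and 20.9 at 4h. A difference between these targets and the cytoskeletal genes was not tested.

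Of 7 tested cofactors, 4 rose and 1 fell from 2h to 4h, where 19.7% of all tested genes rose and 19.2% fell. Mrtfb rose by 0.62 (SE 0.12, adjusted p = 0.000333) and Mrtfa by 0.37 (SE 0.13, adjusted p = 0.0314), and in rev they fell by 0.53 (adjusted p = 0.00177) and 0.43 (adjusted p = 0.0175). At 4h against 0h, Mrtfb had 0.64 (adjusted p = 0.000592), but Mrtfa was not above its start (-0.01, adjusted p = 0.952). Mrtfa had means of 17.2 CPM at 0h, 13.3 at 2h and 17.3 at 4h, and was lower in rev than at 0h (-0.44, adjusted p = 0.0407). The TCF genes Elk3 (1.04, adjusted p = 0.0252) and Elk1 (0.49, adjusted p = 0.0175) rose as well. In rev against 4h, Elk3 and Elk1 were not called (-0.61 and -0.37, adjusted p = 0.202 and 0.0752). Elk4 was higher at 2h than at 0h (0.63, adjusted p = 0.0033) and fell by 0.59 to 4h (adjusted p = 0.0005). Of 14 tested integrin adhesion genes, 7 rose and 3 fell from 2h to 4h, and 7 fell and 0 rose in rev, where 15.6% of all tested genes fell and 15.1% rose. Tns3, a tensin, had the largest change (2.23, SE 0.11, adjusted p = 1.88e-12), followed by Itga5, the fibronectin receptor subunit (1.24, adjusted p = 5.72e-07). Tns3 was lower at 2h than at 0h (-0.68, adjusted p = 0.00036), and at 4h against 0h it had 1.55 (adjusted p = 1.74e-09). Of 9 subunits of the Arp2/3 complex, which nucleates branched filaments, 0 rose and 4 fell from 2h to 4h (19.7% and 19.2% of all tested genes), with Arpc5l (-0.94, adjusted p = 7.29e-06) and Arpc1a (-0.84, adjusted p = 4.72e-05) first, then Arpc4 (-0.59) and Actr2 (-0.36). In rev Arpc5l (0.86), Arpc1a (0.73), Arpc4 (0.50) and Actr2 (0.25) rose. Of 18 other tested actin binding genes, 2 rose and 3 fell from 2h to 4h, shares of the list below the 19.7% and 19.2% of all tested genes.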

How the data were processed

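The deposited table holds raw counts per Ensembl mouse gene for 15 libraries. Per the submitters' processing notes, reads were handled with bcl2fastq 2.19.1 and STAR 2.5.3a on mm10. The counter, annotation and strand setting are not given in the sources used here, so genes that overlap or share sequence are uncertain. Per the labels' protocols, 1 µg of total RNA was depleted of ribosomal RNA. The authors discarded 1 library of 0h. Gene names and positions came from GENCODE M21.

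Counts were tested in R 4.3.3 with edgeR 4.0.16 (filterByExpr, minimum count 10 and total 15, TMM, robust quasi-likelihood F test, two-sided) on group and clone over all 15 libraries. Clone differences came from a model in which each clone had its own group terms. A gene was called at a Benjamini-Hochberg adjusted p under 0.05 over 13451 genes. The steps were tested on simulated data. The 36 genes and all lists were chosen with earlier results of these data known, so their direction is no independent evidence. Genes with full statistics were Srf, Actb, Actg1 and up to 5 called genes with the largest change in each direction per comparison, and library values were given for Srf, Actb, Actg1 and the genes ranked there in several comparisons. Alternatives included DESeq2 1.42.0, total count scaling, other filters, no clone term, thinning and leaving out each library. The fits without the filter, after thinning and with the legacy dispersion were used for the numbers of genes called, not for single genes. Sequences are from RefSeq. A further gene list is not reported here.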

Additional observations from a re-analysis of the deposited data

Results flagged for a closer look

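The change from 2h to 4h differed between the clones, by an interaction test with an adjusted p under 0.05, for 9 genes. Given as clone 8 minus clone 4 on the log2 scale, it was -1.96 for Zyx, -1.81 for Lmna, -1.35 for Cnn2, -1.06 for Tagln2, -0.96 for Pdlim7, -0.66 for Tpm1 and -0.61 for Actg1. It was 1.26 for Lima1 and 0.58 for Enah. For the change from 4h to rev, the difference was 2.12 for Zyx, 1.97 for Lmna, 1.23 for Pdlim7, 0.91 for Tagln2, 0.87 for Actg1 and -1.20 for Lima1. For the change from 0h to 4h, it was -2.39 for Zyx, -2.22 for Lmna, -2.03 for Cnn2, -1.93 for Tagln2, -1.13 for Pdlim7, -0.9992 for Tpm4, -0.85 for Tpm1 and 1.28 for Lima1, with 1 library of clone 4 at 0h. All 3 sets rest on the same 4 libraries at 4h, which were the shallowest of the series.

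The Vcl value of 55.5 CPM in rev clone4_1 stood far from the other 3 rev libraries (39.5 to 41.7 CPM). This was the only such gap among 105 sets of 4 libraries checked, and chance alone gives about 1 in 20.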

How the results depend on the processing

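Of 761 refits of 77 single results, 609 kept direction and side of the threshold, 22 uncalled values changed sign and stayed uncalled, 121 lost the call, 3 gained it and 6 called values reversed. Actg1 for 4h vs 0h is among the uncalled sign changes, with -0.50 under total count scaling. All 6 reversals of called values came with total count scaling: Actb (-0.22), Lima1 (-0.0449) and Srf (-0.34) for 4h vs 0h, Actb (-0.0388) and Srf (-0.0756) for 4h vs 2h, and the Enah clone difference (-0.0103). The 3 gained calls were Actg1 with the counts of Actb and Actg1 summed (0.47 at 4h against 0h, 0.46 against 2h and -0.49 in rev vs 4h), since Actb supplies most of that sum. For the number of genes called, the 0 of 2h vs 0h became 4 without the filter and 2 with only the groups compared (0 to 2 when each library was left out). The 18 of 4h vs 0h became 10 without the clone term (12 to 18), and the 14 of 4h vs 2h became 9 with total count scaling (12 to 15). The 15 of rev vs 4h became 5 with total count scaling and 9 without the clone term (10 to 14). The 2 of rev vs 0h became 6 with DESeq2, 9 without the filter, 6 without the 20 most abundant and mitochondrial genes, 8 with only the groups compared, 1 without the clone term, 4 after thinning and 4 with the legacy dispersion, an alternative chosen after seeing the data (1 to 3). The 17 of clone 8 vs clone 4 became 4 with total count scaling (10 to 16, lowest without 4h clone8_1 or 4h clone8_2). The 9 and 6 clone differences became 2 and 0 with total count scaling (4 to 7 and 5 to 6; the 4 came without 4h clone8_2 and 5 of 9 without 2h clone4_1). The 8 clone differences for 4h vs 0h became 0 with total count scaling (7 to 9), and without 0h clone4_1 no such value could be had. The cause of these shifts was not tested. With the replicate block the 5 counts were 0, 18, 15, 14 and 2. Within clones, the correlation of same-numbered libraries ran from -0.194 to 0.261, so the numbers were not taken to pair samples. Clone differences were not refitted with DESeq2. Depth limits Fhl2 and Tagln most, since 3 counts stood for up to 1.83 CPM at 4h. For Cnn2, the clone difference was lost without each library of 2h and 4h except 2h clone8_1 and 4h clone4_2 (-1.52 to -1.22, adjusted p up to 0.13), for Actg1 without each except 2h clone8_1 and 4h clone4_1 (-0.64 to -0.55, up to 0.108), for Tpm1 without each except 4h clone8_1 (-0.71 to -0.54, up to 0.206), for the Tagln2 difference in rev vs 4h without 4h clone4_2, 4h clone8_2, rev clone4_1, rev clone8_1 or rev clone8_2 (0.78 to 0.97, up to 0.128), and for Enah without any of the 8 (0.52 to 0.62, up to 0.143).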
